A study of Mus musculus with 5 samples.

Results

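Kruppel-like factors (KLFs) other than the erythroid member Klf1 were read in RNA-seq libraries of mouse haematopoietic stem and progenitor cells (HSPCs). The members were taken by gene symbol from a family list of 10 genes, and 9 of these were rows of the table of 11352 genes: Klf2, Klf3, Klf4, Klf6, Klf7, Klf9, Klf10, Klf11 and Klf13. Klf12 was not a row of that table and has no value here. All 9 measured members passed the filter on low values.

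There were 2 libraries from Cux1-low mice, in which the transcription factor gene Cux1 is knocked down, and 3 from Cux1-low;NrasG12D mice, which carry the knockdown together with an activating allele of the small GTPase gene Nras (NrasG12D libraries from here on). Mice of both groups had been given pI:C, a synthetic double-stranded RNA, and doxycycline over 4 weeks, so these treatments and the knockdown are common to both groups. The cells had been sorted as negative for lineage markers and CD135 and positive for KIT and SCA1. Cells with unperturbed Cux1, and cells with the Nras allele but no knockdown, were not analysed here. The labels give neither age nor strain, nor the promoter behind the knockdown or the allele, and do not tie libraries to animals, so a p-value here reflects variation among these libraries, some of it possibly technical.

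KLFs are transcription factors that bind GC-rich and CACCC sequences through zinc fingers at the C-terminal end of the protein, where family members resemble each other most. The rest of the protein differs and sets the effect on transcription. KLF2, KLF4, KLF6 and KLF7 are known mainly as activators, although KLF4 also represses. KLF3 and KLF12 recruit the corepressor CtBP, and KLF9, KLF10, KLF11 and KLF13 can recruit the corepressor SIN3. In blood cells, KLF1 drives erythroid genes, KLF2 holds T cells in quiescence and directs their traffic, and KLF4 acts in monocyte differentiation.

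Klf10, the only member to pass the group test below, and Klf11, which did not pass, are both described as early genes of the TGF-beta response. A stretch of their coding sequence is shown because it bears on whether reads of one could be taken for the other. The stretches hold the longest run of bases that the pair shares in coding sequence, 13 bases, with 30 more bases on each side. They come from GENCODE M21 transcripts (mm10), are written 5′ to 3′ along the coding strand, and each lies within 1 exon. Capitals mark the 16 positions of 73 at which the genes differ. The Klf10 stretch lies at chr15:38296030-38296102 (minus strand) and the Klf11 stretch at chr12:24660245-24660317 (plus strand).
Klf10: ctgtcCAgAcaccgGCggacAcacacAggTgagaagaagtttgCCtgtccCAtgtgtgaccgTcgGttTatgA
Klf11: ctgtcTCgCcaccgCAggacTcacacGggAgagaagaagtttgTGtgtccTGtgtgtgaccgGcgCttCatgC
Identity over the stretch was 78.1%. Among the 36 pairs of measured members, the longest exact run shared in coding sequence was 26 bases (Klf6 and Klf7), and the median over pairs was 12.5 bases. No pair shared a run of 50 bases.

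Promoter sequence follows for Klf2 and Klf6, which varied together across the libraries, and for Klf11. The windows are RefSeq promoters (GRCm38.p6), cut so that each ends before the first annotated transcript base, and run 5′ to 3′ along the gene's strand. Capitals mark matches, on either strand, to the motifs searched. These were the KLF site CACCC, the GC box GGGCGG, the cAMP response element TGACGTCA, the AP-1 site TGANTCA, the FOXO site GTAAACA, the E-box CACGTG, and the CArG box and MEF2 site by their consensus. Overlapping matches were counted separately. The Klf2 window is chr8:72318812-72319032, the Klf6 window chr13:5861239-5861481 and the Klf11 window chr12:24651121-24651273, all on the plus strand.
Klf2: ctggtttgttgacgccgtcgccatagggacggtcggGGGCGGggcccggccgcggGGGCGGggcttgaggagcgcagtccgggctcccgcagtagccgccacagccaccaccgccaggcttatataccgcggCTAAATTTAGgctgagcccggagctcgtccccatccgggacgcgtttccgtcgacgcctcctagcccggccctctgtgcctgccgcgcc
Klf6: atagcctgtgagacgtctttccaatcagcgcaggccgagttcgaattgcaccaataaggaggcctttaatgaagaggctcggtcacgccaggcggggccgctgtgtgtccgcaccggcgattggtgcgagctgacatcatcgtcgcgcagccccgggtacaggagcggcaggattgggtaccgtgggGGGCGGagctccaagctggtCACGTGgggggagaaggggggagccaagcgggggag
Klf11: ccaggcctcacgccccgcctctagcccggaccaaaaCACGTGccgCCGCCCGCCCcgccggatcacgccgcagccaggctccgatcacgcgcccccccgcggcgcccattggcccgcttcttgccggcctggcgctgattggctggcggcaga
The Klf2 window held 2 GC boxes and 1 MEF2 site, the kind of site through which the kinase ERK5 and MEF2 factors are known to switch on Klf2. The Klf6 window held 1 GC box and 1 E-box, and the Klf11 window 2 overlapping GC boxes and 1 E-box. Over the whole 250 bases before the RefSeq start, 9 of the 10 family members had an entry, Klf12 among them, and Klf10 had none. A MEF2 site was found in 1 of these 9 promoters, that of Klf2, and in 2.92% of the 32851 promoters searched. A GC box was found in 7 of 9 (32.7% of all promoters), a CACCC box in 6 of 9 (52% of all) and an E-box in 3 of 9 (6.02% of all). An AP-1 site and a FOXO site occurred in Klf9 alone (6.75% and 3.17% of all promoters), and no member promoter held a CArG box or a cAMP response element (1.47% and 1.55% of all). These matches describe letters in a window and were not tested against binding.

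The libraries held 16489711 to 20262498 reads over the listed genes. Levels are normalized CPM, read counts scaled to library size, as deposited, of which 1 read was worth 0.0481 to 0.0608. The members had from 104 reads (Klf7) to 5558 reads (Klf6) per library, so the largest relative counting error in any library was 9.81% for Klf7 and 2.28% for Klf10. On the first principal component of all genes, NrasG12D library 3 lay at -4.17, between the Cux1-low libraries (-32.8 and -30.1) and NrasG12D libraries 1 and 2 (29.1 and 38.0), so calls that change without it are given both ways. Kit, which encodes the sorted receptor, had 1359 to 1373 normalized CPM in Cux1-low and 477 to 816 in NrasG12D libraries. Of the 7 measured sort gate genes, 0 passed the test below over the 5 libraries. Without NrasG12D library 3, 5 of them fell and 2 rose, in a fit where 19.4% of all genes fell and 18% rose. Ly6a, which encodes SCA1, was at 44.7 and 48.7 in Cux1-low and at 24.2, 14.2 and 37.7 in NrasG12D libraries. Flt3, which encodes CD135, was at 326 and 388 in Cux1-low and at 196, 165 and 230 in NrasG12D libraries. Flt3 was thus read in both groups although the sort had been for CD135-negative cells. Of the lineage genes in the marker list, Cd3e, Cd4, Cd8a and Ly6g were not rows of the table. Differences were tested with limma on log2 of normalized CPM + 1 between the 3 NrasG12D and the 2 Cux1-low libraries, adjusted over all 11352 genes (threshold 0.05). Fold changes on this scale understate the change of low genes. In bulk samples, fewer cells of a type and less RNA per cell cannot be told apart.

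Klf10 was the 1 member of 9 that passed the test: it fell in the NrasG12D libraries to 0.521 of its Cux1-low mean. No member rose. Over all genes, 0.872% fell and 0.255% rose by the same rule (1.13% in either direction). The groups did not overlap for Klf10 and Klf11, both lower with NrasG12D, and for Klf13, which was higher. Such separation held for 3 of 9 members and for 53.5% of all genes (27% lower, 26.5% higher), so the family as a whole was not set apart by it. The median log2 fold change was -0.01 over the 9 members and -0.0030 over all genes. The summed level of the 9 members was 763 and 762 normalized CPM with Cux1-low alone and 656, 635 and 807 with NrasG12D, so the groups overlapped in the total.

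**Figure D1:**
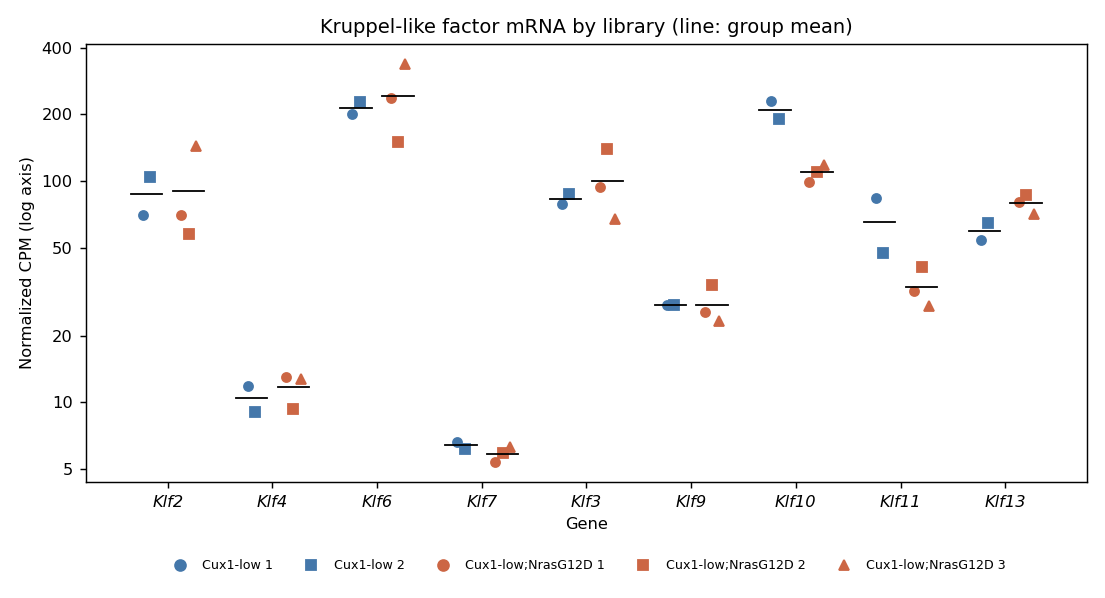
Normalized CPM (log axis) of the 9 measured members, 1 point per library and a line at each group mean. Both Cux1-low libraries have Klf10 at 189.9 or more and all 3 NrasG12D libraries at 119 or less, while the groups overlap for Klf2, Klf3, Klf4, Klf6, Klf7 and Klf9.

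Among members that recruit SIN3, Klf10 (chromosome 15, 38291463 to 38300706, minus strand) encodes TIEG1, a repressor induced by TGF-beta. The Cux1-low libraries had 229 and 189.9 normalized CPM of Klf10, and the NrasG12D libraries 99.2, 109.8 and 119. All 3 NrasG12D libraries were low and close to each other, library 3 included. The means were 209.7 ± 28.0 (SD, n = 2) and 109 ± 9.72 (SD, n = 3). The log2 fold change was -0.93 (SE 0.13, 95% interval -1.24 to -0.62, limma adjusted p = 0.0411). By unadjusted p it ranked 53 of 11352 genes. Without NrasG12D library 3 the log2 fold change was -0.99 (limma adjusted p = 0.00277), in a fit where 19.4% of all genes fell. The call was lost without any other library. Without NrasG12D library 1 and 2 the limma adjusted p was 0.170 and 0.0784, in fits where 0.0264% and 0.194% of all genes passed. Leaving out Cux1-low library 1 or 2 left 1 library in that group, with log2 fold changes of -0.80 and -1.07. Over all libraries left out, the log2 fold change stayed between -1.07 and -0.80. Without a variance trend, limma gave an adjusted p of 0.0512. In the authors' deposited table the log2 fold change of Klf10 was -0.94 with an adjusted p of 6.21e-07.

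Klf11 (chromosome 12, 24651274 to 24662789, plus strand), which encodes the related protein TIEG2, gave 83.4 and 47.4 normalized CPM in Cux1-low cells and 32.0, 40.8 and 27.2 in NrasG12D cells. The Cux1-low libraries differed 1.76-fold from each other, and the lower of them lay just above NrasG12D library 2. The means were 65.4 ± 25.5 and 33.3 ± 6.89, a log2 fold change of -0.92 (SE 0.27, 95% interval -1.55 to -0.28, limma adjusted p = 0.0894). Klf11 did not pass, and its size rested on the Cux1-low libraries: the log2 fold change was -0.52 without Cux1-low library 1 and -1.32 without library 2, and over libraries left out the limma adjusted p was 0.0544 to 0.443. In the authors' deposited table its log2 fold change was -0.97 with an adjusted p of 0.0109, and with Klf10 it made up the 2 members past 0.05 there, both lower (9.14% of all genes were lower by that rule). The ratio of Klf10 to Klf11 was 2.75 and 4.01 in Cux1-low and 3.11, 2.69 and 4.36 in NrasG12D libraries, so the groups overlapped in that ratio.

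Klf13 (chromosome 7, 63886351 to 63938915, minus strand), known as an activator of the chemokine gene Ccl5 in T cells, had levels of 54.1 and 64.5 normalized CPM in Cux1-low and 80.2, 86.6 and 71.0 in NrasG12D libraries. All 3 NrasG12D libraries were above both Cux1-low libraries, with library 3 the nearest. The means were 59.3 ± 7.41 and 79.2 ± 7.87, a log2 fold change of 0.41 (SE 0.14, 95% interval 0.09 to 0.74, limma adjusted p = 0.110). It passed without NrasG12D library 3 (log2 fold change 0.49, limma adjusted p = 0.0238), in a fit where 37.4% of all genes passed (18% rose and 19.4% fell). Klf13 overlaps 2 annotated genes on the opposite strand, so some of its reads could belong to them. Klf9 (chromosome 19, 23141226 to 23168134, plus strand), a gene induced by glucocorticoids and thyroid hormone, had 27.6 and 27.5 normalized CPM in Cux1-low and 25.7, 34.0 and 23.2 in NrasG12D libraries. The Cux1-low pair lay inside the NrasG12D range, and the difference was -0.01 (SE 0.19, 95% interval -0.45 to 0.43, limma adjusted p = 0.970). Within the closely related pair, the ratio of Klf13 to Klf9 was 1.96 and 2.35 in Cux1-low and 3.11, 2.55 and 3.06 in NrasG12D libraries. These ratios did not overlap between the groups and were not tested. Klf13 by itself did not overlap either, and the same held for 53.5% of all genes.

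**Figure D2:**
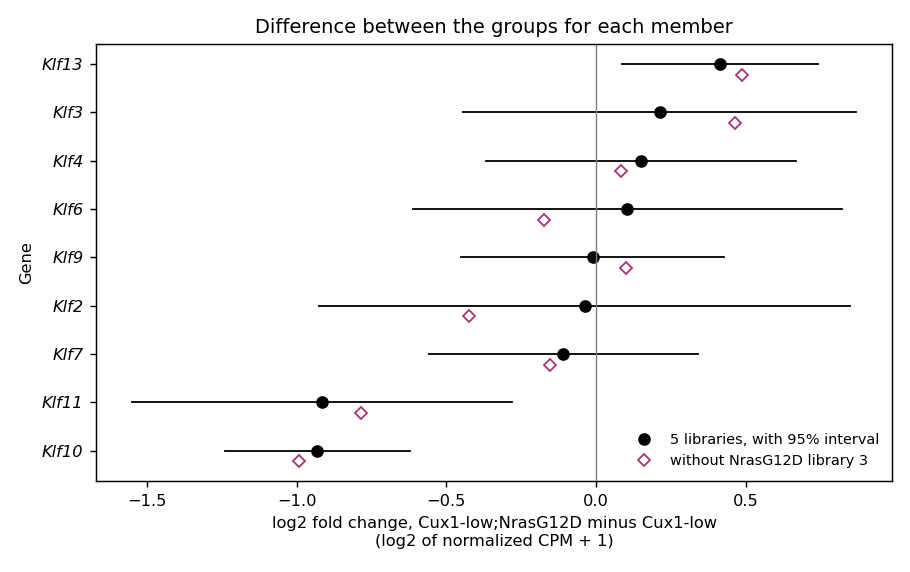
Log2 fold change (NrasG12D minus Cux1-low, on log2 of normalized CPM + 1) of each member with its 95% interval from limma over 5 libraries, and as an open diamond the value without NrasG12D library 3. The intervals of Klf10, Klf11 and Klf13 do not reach 0 before adjustment over all genes, and Klf2 moves from -0.04 to -0.42 and Klf6 from 0.10 to -0.17 without library 3.

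The activators did not pass the test, and the most abundant of them per kb of exon, Klf6 and Klf2, differed more within the NrasG12D group than between groups. Klf6 (chromosome 13, 5861482 to 5870394, plus strand), a widely expressed growth-response gene, stood at 201 and 226 normalized CPM in Cux1-low and at 237, 151 and 338 in NrasG12D libraries. NrasG12D library 2 was the lowest of all 5 and library 3 the highest, a 2.24-fold range inside the group. The means were 214 ± 18.1 and 242 ± 93.7, a log2 fold change of 0.10 (SE 0.30, 95% interval -0.61 to 0.82, limma adjusted p = 0.831). Klf2 (chromosome 8, 72319033 to 72321656, plus strand) stood at 70.5 and 104 normalized CPM in Cux1-low and at 70.1, 57.8 and 143 in NrasG12D libraries. As for Klf6, NrasG12D library 2 was lowest and library 3 highest, with a 2.48-fold range in the group. The means were 87.4 ± 23.8 and 90.4 ± 46.1, a log2 fold change of -0.04 (SE 0.37, 95% interval -0.93 to 0.85, limma adjusted p = 0.951). The interval of Klf2 reached down to about the estimate for Klf10. Without NrasG12D library 3 the log2 fold changes were -0.42 for Klf2 (limma adjusted p = 0.131) and -0.17 for Klf6 (limma adjusted p = 0.521), so the sign of Klf6 rested on that library. The range inside the NrasG12D group was wider for Klf2 than for 97.0% of all genes and wider for Klf6 than for 95.3%.

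Klf4 (chromosome 4, 55527143 to 55532466, minus strand), one of the factors used to reprogram cells to pluripotency, was low throughout, with 11.8 and 9.05 normalized CPM in Cux1-low and 13.0, 9.30 and 12.8 in NrasG12D libraries. The groups overlapped, with a log2 fold change of 0.15 (SE 0.22, 95% interval -0.37 to 0.67, limma adjusted p = 0.654). Klf7 (chromosome 1, 64029447 to 64122282, minus strand), a close relative of Klf6, had 6.67 and 6.16 against 5.39, 5.93 and 6.32 normalized CPM, a difference of -0.11 on the log2 scale (SE 0.19, 95% interval -0.56 to 0.34, limma adjusted p = 0.709). Klf7 overlaps 2 genes annotated on the opposite strand. Klf3 (chromosome 5, 64803388 to 64832901, plus strand), the measured member that recruits CtBP, is known to be switched on by KLF1 in erythroid cells. Its levels were 78.6 and 86.9 normalized CPM in Cux1-low and 93.8, 139.9 and 67.3 in NrasG12D libraries. Here NrasG12D library 2 was the highest of all 5 and library 3 the lowest, the reverse of Klf2 and Klf6. The log2 fold change was 0.21 (SE 0.28, 95% interval -0.44 to 0.87, limma adjusted p = 0.615), and a gene annotated on the opposite strand overlaps Klf3. Klf1 itself had 166 and 209 against 423, 533 and 270.4 (log2 fold change 1.08, limma adjusted p = 0.0774, and 1.35 with limma adjusted p = 0.00236 without library 3), also with library 2 highest among the NrasG12D libraries.

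Klf2 and Klf6 are known as genes that respond quickly to stimulation and handling, so they were set beside 17 measured immediate early and handling-stress genes. In 13 of these 17, as in Klf2 and Klf6, NrasG12D library 3 was the highest and library 2 the lowest of the 5 libraries, and the same held for 513 of all 11352 genes (4.52%). This order was chosen after the values were seen and is a description. Fos, which encodes a subunit of the AP-1 factor, had 1796 and 2035 normalized CPM in Cux1-low and 1688, 950.4 and 2708 in NrasG12D libraries. Jun, its partner, was at 2925 and 3245 against 2718, 1596 and 4218. Egr1, a zinc finger factor induced by growth signals, was at 883 and 1103 against 730.2, 427 and 1163. The 4 genes of the list with another order were Egr2, Myc and the HSP70 genes Hspa1a and Hspa1b. Hspa1b and Hspa1a, near-identical copies between which reads cannot be divided with certainty, were the 2 of 17 that rose, and 15 did not pass (list median -0.05). Hspa1b had 15.2 and 12.3 normalized CPM against 522, 281 and 416 (log2 fold change 4.75, limma adjusted p = 0.00187). Hspa1a had 12.5 and 8.86 against 416, 216 and 289 (log2 fold change 4.69, limma adjusted p = 0.00252). Both were high in all 3 NrasG12D libraries, the libraries in which Klf10 was low. Without library 3, 2 of the 17 rose and 3 fell, in a fit where 18% of all genes rose and 19.4% fell. Klf10 and Klf11 did not follow this order: in NrasG12D library 3, where the 15 genes other than Hspa1a and Hspa1b had a median of 0.45 on the log2 scale relative to the Cux1-low mean, Klf10 was at -0.82 and Klf11 at -1.27. The part of handling or stress in the values of Klf2, Klf6 and Klf10 was not tested.

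**Figure D3:**
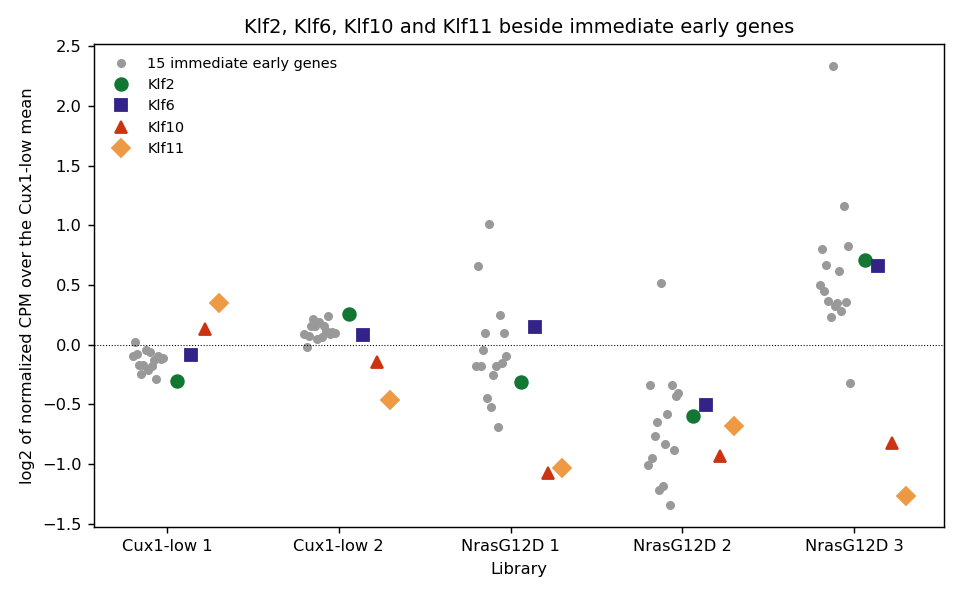
Log2 of normalized CPM relative to the Cux1-low mean in each of the 5 libraries, for 15 immediate early genes (grey, the list without Hspa1a and Hspa1b) and for Klf2, Klf6, Klf10 and Klf11. Klf2 and Klf6 are at -0.60 and -0.51 in NrasG12D library 2 and at 0.71 and 0.66 in library 3, whereas Klf10 stays between -1.08 and -0.82 in all 3 NrasG12D libraries.

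Levels were compared between genes per kb of exon, with exon lengths from GENCODE M21. In the Cux1-low libraries Klf10 was at 50.2 ± 6.70 normalized CPM per kb, Klf6 at 48.7 ± 4.11 and Klf2 at 47.3 ± 12.9, and these 3 did not differ beyond their spread. Klf11 followed at 15.1 ± 5.87. Klf13 (7.88 ± 0.984) and Klf3 (7.36 ± 0.525) overlapped, and below them came Klf9 at 5.71 ± 0.00960, Klf4 at 3.42 ± 0.641 and Klf7 at 0.789 ± 0.0440. In the NrasG12D libraries Klf6 (55.0 ± 21.3) and Klf2 (48.9 ± 25.0) led with overlapping values, and Klf10 was next in every library at 26.1 ± 2.33. Klf11, ranked 4 of 9 in both Cux1-low libraries, ranked 6, 6 and 5 in the NrasG12D libraries at 7.68 ± 1.59 per kb, below the means of Klf13 (10.5 ± 1.05) and Klf3 (8.92 ± 3.27). Klf9, Klf4 and Klf7 kept ranks 7, 8 and 9 in all 5 libraries. Among 10941 genes with an exon length, the mean of Klf10 per kb lay above 89.6% of genes in the Cux1-low libraries and above 75.9% in the NrasG12D libraries.

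**Figure D4:**
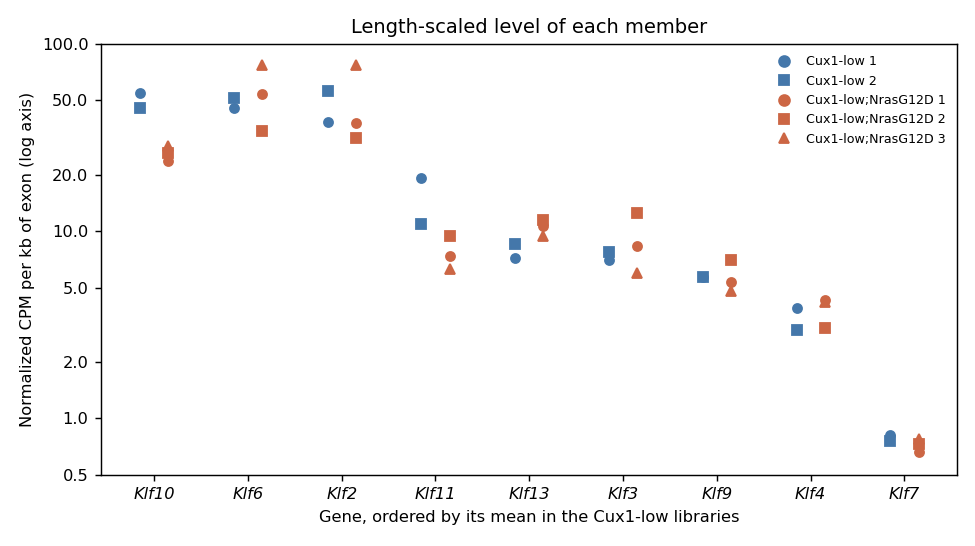
Normalized CPM per kb of exon (log axis) for the 9 members in each of the 5 libraries, ordered by the Cux1-low mean. Klf10, Klf6 and Klf2 share the top level in the Cux1-low libraries (means of 50.2, 48.7 and 47.3), and Klf10 lies at 23.7 to 28.4 in the NrasG12D libraries.

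Genes that act with or upstream of KLF proteins were read from lists chosen by function, and none of the lists in this paragraph and the next had a member past the threshold over the 5 libraries. Of 10 genes of the TGF-beta pathway, which induces Klf10 and Klf11, 9 had a negative sign (median log2 fold change -0.38, against -0.0030 over all genes). Tgfbr2, which encodes the type II receptor, was at 154 and 166 normalized CPM against 58.5, 59.5 and 126 (log2 fold change -1.06, limma adjusted p = 0.0931). Smad3, a transducer of the pathway, was at 65.4 and 56.9 against 33.2, 41.3 and 47.9 (log2 fold change -0.58, limma adjusted p = 0.0922). The ligand gene Tgfb1 was the member with a positive sign, at 185 and 201 against 246, 209 and 245. Without NrasG12D library 3, 5 of the 10 fell, beside 19.4% of all genes. The list mixes receptors and transducers with the inhibitors Smad7, Ski and Skil (log2 fold changes -0.17, -0.28 and -0.47). Its signs therefore do not give the activity of the pathway. A part of this pathway in the Klf10 and Klf11 values was not tested. The MEKK3, ERK5 and MEF2 genes, upstream of Klf2 and Klf4, had 13 measured members and a median of -0.22. Mef2c, a MEF2 factor gene, was at 236 and 219.9 against 133, 131 and 173 (log2 fold change -0.65, limma adjusted p = 0.0684), and the kinase gene Map3k3 at 84.2 and 68.7 against 57.3, 51.9 and 66.5. In that list 4 fell without NrasG12D library 3.

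Corepressor and coactivator genes had 14 measured members with a median of 0.06, 9 of them with a positive sign. The corepressor gene Ctbp1 had 467 and 473 normalized CPM against 561, 571 and 484, and Sin3a 114 and 103 against 98.2, 119 and 125. Rbbp4, a histone-binding subunit of SIN3 and other complexes, was at 497 and 565 against 736, 744 and 681 (log2 fold change 0.44, limma adjusted p = 0.0769), and Hdac2 at 239 and 249.7 against 279.8, 288 and 293. The 7 ubiquitin ligase genes had a median of -0.15. Smurf1 was at 34.0 and 35.6 against 15.3, 13.6 and 25.9 (log2 fold change -0.94, limma adjusted p = 0.0862), and Vhl at 53.3 and 50.01 against 42.3, 43.0 and 42.3. The 7 glucocorticoid genes, a pathway that induces Klf9, had a median of 0.01, with Sgk1 at 13.5 and 11.1 against 16.1, 20.4 and 17.4 and Tsc22d3 at 167 and 159 against 96.2, 68.7 and 164. Of 12 measured genes described as targets of KLF2, KLF4 or KLF6, 8 had a positive sign (median 0.18). Among them S1pr1, the receptor through which KLF2 directs lymphocyte traffic, was at 33.0 and 33.0 against 12.9, 10.2 and 29.3 (log2 fold change -1.02, limma adjusted p = 0.138), and was chosen after its values were seen. Ccne1 (cyclin E1) was at 83.7 and 92.7 against 156, 237 and 105, and Thbd (thrombomodulin) at 21.8 and 17.9 against 14.1, 13.8 and 15.1. In the rest of the family, 8 of 16 KLF and SP genes were measured with a median of 0.18. Klf16, besides Klf1, was at 23.0 and 20.7 against 26.8, 33.8 and 29.2 (limma adjusted p = 0.124). Without NrasG12D library 3, 2 of 14 corepressor and coactivator genes, 3 of 12 described targets and 2 of 8 other KLF and SP genes rose. In the same fit 1 ubiquitin ligase, 2 glucocorticoid, 1 described target and 1 other KLF or SP gene fell. Over all genes, 18% rose and 19.4% fell there.

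By library profile, the genes closest to Klf10 over the 5 libraries were Ncoa7, Ctnnal1 and Zfp874a, at Euclidean distances of 0.131, 0.140 and 0.152 between mean-centred log2 profiles. Ctnnal1, which is also a stem cell marker of the lists, was at 31.0 and 28.4 normalized CPM against 14.6, 15.01 and 17.3. Within a distance of 0.5 of Klf10 lay 439 genes. For Klf13, the member with the most positive difference, the closest were Uck2, Scamp3 and Fam96a (distances 0.0447, 0.0638 and 0.0761), and 3775 genes lay within 0.5. This distance depends on the size of a change, and Klf13 changed little, so nearly flat genes can lie within 0.5 of it. The counts for Klf10 and Klf13 therefore do not compare how common their patterns were. Gene models without a descriptive symbol were left out of both.

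Several lists of cell type markers differed in summed level between the groups. All 9 measured erythroid markers had a positive sign, and they summed to 4772 to 5223 normalized CPM in Cux1-low and 5848 to 11445 in NrasG12D libraries. The 7 measured B cell markers, all with a positive sign, summed to 56.0 to 74.5 and to 58.0 to 463, with library 3 lowest of its group. The 11 measured genes of the stem cell list, 9 with a negative sign, summed to 2165 to 2268 and to 838 to 1769. Of these, 1 fell (Ndn, log2 fold change -2.33, limma adjusted p = 0.0498). Slamf1 and Cd48 had a positive sign. Cd34 alone gave 1075 and 1140 normalized CPM of the Cux1-low sums, and 737, 488 and 1002 of the NrasG12D sums. The 8 megakaryocyte and platelet markers, all with a negative sign, summed to 1331 to 1353 and to 569 to 1140.4. The 6 dendritic cell and macrophage markers, 5 with a negative sign, summed to 609.8 to 944 and to 226 to 371. Of these, 1 fell (H2-Aa, log2 fold change -1.69, limma adjusted p = 0.0478). Cd74, H2-Aa, H2-Ab1 and H2-Eb1 made up nearly all of these sums. Itgax, with a positive sign, was at 1.20 to 3.39 normalized CPM, and Adgre1, which did not pass, at 0.970 to 4.57. Of the 7 mast cell, eosinophil and basophil markers, Epx and Prg2 fell, 4 had a negative sign, and the sums were 1186 to 1415 and 930.2 to 1234. The 9 granulocyte and monocyte markers, 8 with a positive sign, summed to 7836 to 10993 and to 8489 to 20001, and 4 endothelial and stromal markers, 3 with a negative sign, to 297 to 308 and to 139 to 264. T and NK cell markers (3 measured, 2 with a positive sign) summed to 256 to 284 and to 208 to 352, and Cd3e, Cd3d, Cd3g, Pax5, Rag1, Hba-a1, Hbb-bt and Cdh5 were not rows of the table. Without NrasG12D library 3, where 18% of all genes rose and 19.4% fell, more markers passed: 9 of 9 erythroid, 7 of 7 B cell and 6 of 9 granulocyte and monocyte markers rose. In the same libraries 9 of 11 stem cell, 5 of 8 megakaryocyte and platelet and 4 of 6 dendritic cell and macrophage markers fell. So did 3 of 7 mast cell, eosinophil and basophil and 2 of 4 endothelial and stromal markers, and 0 of 3 T and NK cell markers passed. The 4 dendritic cell and macrophage markers that fell were Cd74, H2-Aa, H2-Ab1 and H2-Eb1. The part of these cell types in the lower Klf10 level, and in the values of the other members, was not tested.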

How the data were processed

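RNA-seq of sorted mouse HSPCs was read from 1 table of 5 libraries. TopHat, HTSeq and edgeR, and the builds hg19 and mm10, appear in the submitters' processing notes. Their versions and roles, and whether counting used strand, are not given in the sources used here. The deposited signal values are headed CPM per the file headers, but columns sum to 971746 to 1026780, so the authors had applied a composition factor. Every listed gene exceeds 1 in at least 3 libraries, so genes above 1 in the Cux1-low libraries alone are not listed. The authors' deposited table also gives log2 fold changes, a likelihood ratio score and p-values. All deposited values were whole multiples of 1 step per library (tolerance about 0.001 of a step), which gave reads for description. Few values near 1 read are listed, so the recovered reads were not accepted as counts and no count test was run. The planned limma fit for normalized values was used (limma 3.58.1, R 4.3.3, trended variance, pseudocount 1, and a minimum of 1 in 2 or more libraries, which removed 0 genes), checked on simulated data. Other steps used Python 3.11.15. Named genes were all members, up to 4 per list past the threshold or the 2 with the smallest p, and the 3 nearest profiles to the most positive and most negative member, and other named genes were chosen after their values were seen. Members and lists were chosen with earlier results of these data known.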

Additional observations from a re-analysis of the deposited data

How the results depend on the processing

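Klf10 was lower with NrasG12D, and Klf11 lower and Klf13 higher, in the sign of their estimates under all 15 alternatives run. The groups did not overlap for these genes, so most alternatives could not have turned a sign. This holds for libraries left out, other pseudocounts, filters and variance settings, and a term for replicate number. Only library sums set equal and median-centred values could have turned a sign, and neither did. The count of 1 member lower became 0 without a variance trend (Klf10 adjusted p = 0.0512) and 0 to 1 when single libraries were left out, and the count of members higher was 0 to 1 there. With the replicate block, a term for the shared replicate number that also takes up NrasG12D library 3, 2 members were lower (Klf10 and Klf11) and 2 higher (Klf3 and Klf13), in a fit that called 1892 genes higher and 2271 lower (36.7% of all). The labels tie no number to a shared animal or day, and the deviations of same-numbered libraries had correlations of -0.19 and -0.0035, so the numbers were not taken as pairs. Signs turned for 5 members near 0. Klf9 was at 0.00043 with median-centred values, at 0.10 with the replicate block and without NrasG12D library 3, at 0.03 without library 1, in a range of -0.16 to 0.10 over libraries left out. Klf6 was at -0.17 with the block and ranged from -0.17 (without NrasG12D library 3) to 0.41 over libraries left out. Over libraries left out, Klf2 ranged from -0.42 to 0.24, with 0.09 and 0.22 without NrasG12D libraries 1 and 2, Klf4 from -0.025 (without Cux1-low library 2) to 0.33, and Klf3 from -0.057 (without NrasG12D library 2) to 0.47. Over all genes, the 29 higher and 99 lower became 63 lower at a pseudocount of 0.1, 63 higher and 286 lower at 5, and 182 lower with library sums set equal, which moved the median log2 fold change to -0.06. Leaving out single libraries gave 3 to 2043 higher and 0 to 2200 lower, and the cause was not tested. With 2 and 3 libraries a group, a call rests on few residual degrees of freedom. Tests on read counts were left out, since recovered reads were not accepted as counts.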
